A study of Mus musculus with 6 samples.

Results

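Fibroblast growth factors (FGFs) form a family of signalling proteins, and 10 of the 47729 genes quantified in mouse brown adipose tissue (BAT) are described here: *Fgf1*, *Fgf2*, *Fgf7*, *Fgf9*, *Fgf10*, *Fgf11*, *Fgf13*, *Fgf16*, *Fgf18* and *Fgf21*. They were chosen by gene symbol, with no threshold on any measured value, and all 10 had a count above 0 in at least 1 mouse. BAT, the heat-producing fat depot, came from the right interscapular side of 6 male wild type C57BL/6J mice that entered the feeding period at 6 weeks of age. For 4 weeks, until 10 weeks of age, 3 mice ate a purified diet with 45% of calories from fat (HFD). The other 3 ate a standard rodent chow (LFD) from another maker. Fat content and all other differences between these foods therefore cannot be told apart. Each mouse gave 1 library of ribosome-depleted total RNA, and the mice chosen for sequencing spanned the lowest to the highest fat mass in their diet group, without a key to the replicate numbers. The comparison asked which transcripts of the FGF family differ in BAT once mice become obese on the HFD.

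Secreted FGFs bind receptor tyrosine kinases of the FGFR family on the cell surface, and heparan sulfate chains or a klotho protein stabilise the complex. The receptor then passes the signal through the adaptor FRS2 to the RAS and MAP kinase cascade, whose output includes its own inhibitors. In adipose tissue FGF1, FGF2 and FGF10 are known to act on preadipocytes, while FGF21 is a hormone that acts on fat cells through FGFR1 and beta-klotho. *Fgf11* and *Fgf13* carry the family name but encode proteins of the intracellular branch, which stay inside the cell and bind voltage-gated sodium channels. They are thus not ligands of the receptors in the usual sense, but are counted among the ligands below by family name.

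The 250 bases before the annotated start of *Fgf10*, *Fgf7* and *Fgf21* are shown as RefSeq gives them on GRCm38.p6. *Fgf10* and *Fgf7* are the tissue's paracrine ligands of a single subfamily, and *Fgf21* is the endocrine member of the set. The windows lay at chr13:118714449-118714698 on the plus strand, chr2:126034408-126034657 on the plus strand and chr7:45615491-45615740 on the minus strand. Capitals mark matches, on either strand, to the GC box GGGCGG, the CCAAT box CCAAT, the TATA box TATAAA and the amino acid response element TGATGNAA.
Fgf10: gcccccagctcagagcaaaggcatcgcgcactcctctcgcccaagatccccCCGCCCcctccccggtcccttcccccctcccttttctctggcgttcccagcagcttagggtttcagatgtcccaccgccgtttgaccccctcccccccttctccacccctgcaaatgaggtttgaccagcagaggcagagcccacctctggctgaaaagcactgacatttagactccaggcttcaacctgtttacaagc
Fgf7: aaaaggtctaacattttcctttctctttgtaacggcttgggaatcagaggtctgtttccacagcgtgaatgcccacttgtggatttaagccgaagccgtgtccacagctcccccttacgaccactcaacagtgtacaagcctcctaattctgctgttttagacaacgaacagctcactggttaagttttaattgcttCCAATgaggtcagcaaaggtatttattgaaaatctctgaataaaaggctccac
Fgf21: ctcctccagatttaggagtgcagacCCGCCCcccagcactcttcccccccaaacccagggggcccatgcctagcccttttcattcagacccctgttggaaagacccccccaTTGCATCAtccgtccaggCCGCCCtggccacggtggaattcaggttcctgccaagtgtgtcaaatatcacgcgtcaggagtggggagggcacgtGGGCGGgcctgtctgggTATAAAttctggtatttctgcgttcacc

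The *Fgf21* window held 1 TATA box, 3 GC boxes and 1 amino acid response element, the *Fgf10* window held 1 GC box, and the *Fgf7* window held 1 CCAAT box. Of 32851 promoter windows of the same length, 12.4% had a TATA box, 32.7% a GC box, 33.8% a CCAAT box and 3.45% the amino acid response element. *Fgf7* had a GC content of 43.6%, below the 61.2% of *Fgf10*, the 59.6% of *Fgf21* and the median of 52.4% over all windows. The *Fgf10* window lies within the span that GENCODE M21 gives for *Fgf10*, chr13:118669791-118792115, and not before it. The antisense gene *Gm16263* overlaps 20105 bases of that span. These matches are a description of the letters, and no binding or chromatin was measured.

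Total counts on genes were 17156991 to 21603487 per mouse, and the share of mitochondrially encoded genes was 8.5% to 22.7% in HFD-fed and 3.87% to 13.8% in LFD-fed mice. *Ucp1*, which encodes the uncoupling protein that defines brown fat, was at 2728, 4021 and 796 TPM (a transcript level corrected for gene length and library size) in HFD replicates 1, 2 and 3 and at 443, 11.0 and 76.0 TPM in LFD replicates 1, 2 and 3. All LFD-fed mice lay below all HFD-fed mice in this marker of the labelled tissue, and LFD replicate 2 was the lowest. The 12 skeletal muscle markers, for each of which the LFD-fed mice lay above the HFD-fed mice, summed to 17.6 to 224 TPM in HFD-fed and 1953 to 13370 TPM in LFD-fed mice, and 1 of them, *Myot*, was at 0 in a mouse. The 12 fibroblast and adipose progenitor markers summed to 3801 to 6122 TPM in HFD-fed and 2157 to 34050 TPM in LFD-fed mice. In such bulk tissue, fewer cells of a type and less RNA per cell cannot be told apart.

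Levels of the ligands can be compared between genes on the TPM scale, which corrects for transcript length. Together the 10 genes summed to 29.0, 31.1 and 19.4 TPM in HFD replicates 1, 2 and 3 and to 57.1, 99.5 and 44.1 TPM in LFD replicates 1, 2 and 3. In TPM, every LFD-fed mouse had a higher sum than every HFD-fed mouse. In counts scaled to library size after TMM normalization the diets overlapped, with the sum of HFD replicate 1 above that of LFD replicate 3. *Fgf1* led in HFD-fed mice with a median of 11.7 TPM, and its lowest value of 5.55 TPM was above the highest *Fgf2* value of 5.03 TPM but below the 6.01 TPM of *Fgf7* in the same mouse, HFD replicate 3. *Fgf2*, *Fgf7* and *Fgf10* followed with medians of 3.95, 3.84 and 3.10 TPM and overlapping values. *Fgf9*, *Fgf11*, *Fgf18*, *Fgf13* and *Fgf21* came next in HFD-fed mice, each overlapping its neighbour in this order, and *Fgf16* was the lowest with a median of 0.04 TPM. In LFD-fed mice the order by median was *Fgf10*, *Fgf2*, *Fgf7*, *Fgf13*, *Fgf1*, *Fgf11*, *Fgf9* and *Fgf18*, from 16.3 down to 1.48 TPM. No neighbours in that order stood apart until the step from *Fgf18* to *Fgf16* at 0.41 TPM, with *Fgf21* last at 0.34 TPM.

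**Figure D1:**
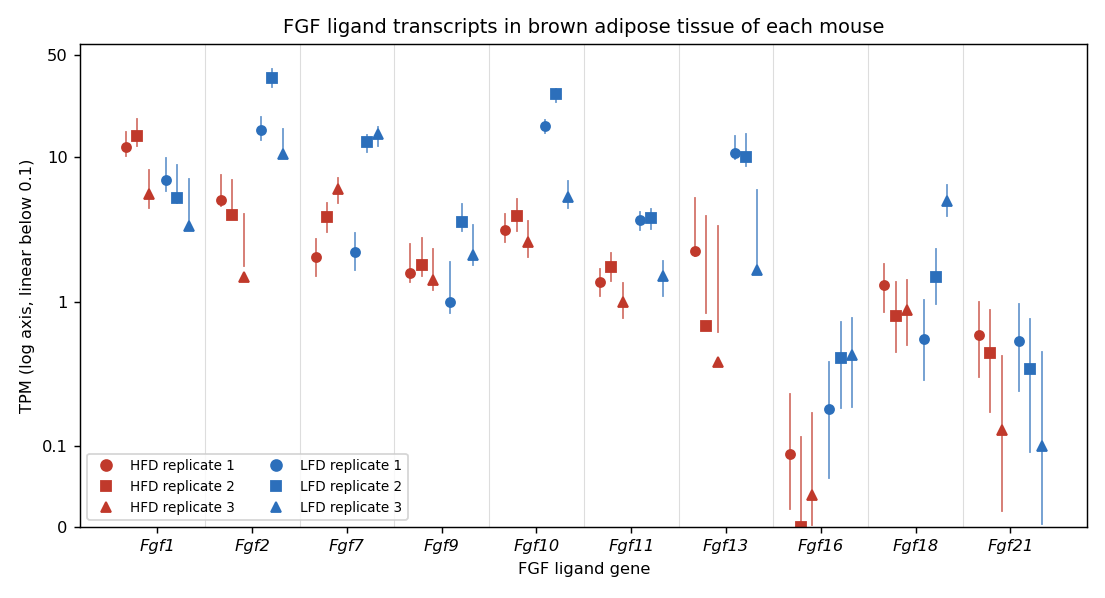
Transcript level of each of the 10 FGF ligand genes in TPM (log axis, linear below 0.1) in 3 HFD-fed and 3 LFD-fed mice. Each point is a mouse and each line the credibility interval that RSEM gave, which for some low values lies above the point because RSEM centres it on another estimate. The HFD points of *Fgf2* (1.47 to 5.03 TPM) and *Fgf10* (2.56 to 3.87 TPM) lie below all LFD points.

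The make-up of this sum differed between the diets. *Fgf1*, a ligand that binds every FGF receptor, made up 40.3%, 45.0% and 28.6% of the summed TPM in HFD replicates 1, 2 and 3 and 12%, 5.20% and 7.48% in LFD replicates 1, 2 and 3. *Fgf2* made up 7.57% to 17.4% in HFD-fed and 23.8% to 35.2% in LFD-fed mice. The groups did not overlap for either gene. *Fgf10* made up 10.7% to 13.2% in HFD-fed mice, 28.6% and 27.3% in LFD replicates 1 and 2 and 12% in LFD replicate 3, which lay within the HFD range. *Fgf7* made up 30.9% of the sum in HFD replicate 3 and 32.4% in LFD replicate 3, against 3.85% to 12.7% in the other 4 mice. These shares depend on one another, since a higher share of a gene lowers all others, and no test was made of them.

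**Figure D2:**
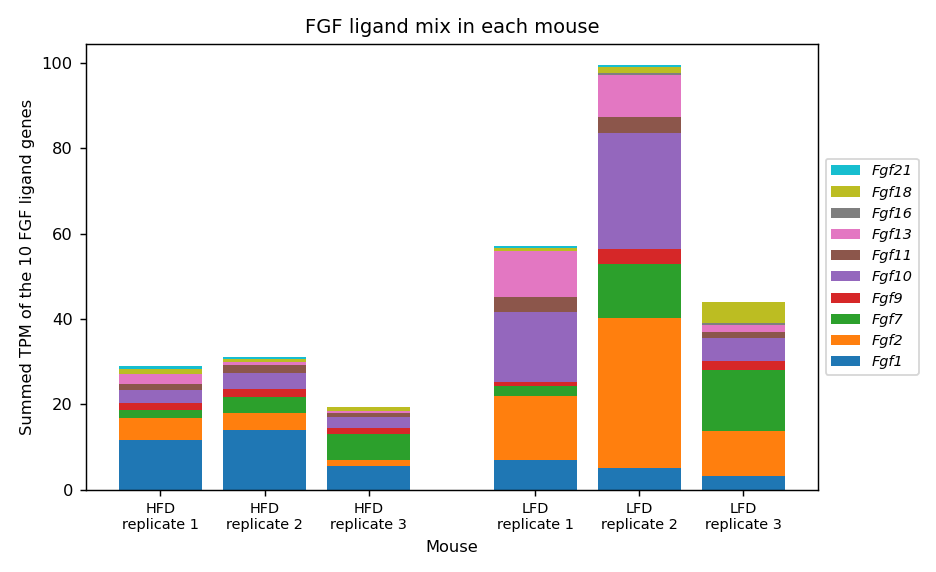
Summed TPM of the 10 FGF ligand genes in each mouse, with a bar for each of the 3 HFD-fed and 3 LFD-fed mice and a colour for each gene. *Fgf1* is the largest block in HFD replicates 1 and 2 (40.3% and 45.0% of the sum), and *Fgf2* and *Fgf10* are the largest in LFD replicates 1 and 2.

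For the comparison between the diets, the expected counts of all genes were rounded and fitted together by edgeR's quasi-likelihood test with Benjamini-Hochberg adjustment over 17668 genes. A negative log2 fold change means a lower level in HFD-fed than in LFD-fed mice. Calls required an adjusted p under 0.01 and a log2 fold change beyond 1.5 in either direction. Of the 8 FGF ligands with enough counts to be tested, edgeR called 0, as it did among all genes (0.0%), where 1851 had an unadjusted p below 0.05 and DESeq2 called 412. DESeq2 called 0 of the ligands as well, against 2.06% of all genes. The results below are therefore values with their errors, none of which passed the test.

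Of the 8 tested ligands, the intracellular *Fgf11* and *Fgf13* among them, 7 had a negative log2 fold change, with a median of -1.0. Of all tested genes, 54.4% had a negative value and their median was -0.05. An unadjusted p under 0.05 in the lower direction was found for 3 ligands, *Fgf2*, *Fgf10* and *Fgf13*, against 6.62% of all genes. Without LFD replicate 2 this count was 1 (*Fgf10*), against 4.47% of all genes in that fit. It was 2 (*Fgf2* and *Fgf10*) without HFD replicate 2 or HFD replicate 3, against 4.01% and 3.89%. Without LFD replicate 1 it was 3, with *Fgf7* in place of *Fgf13*, against 8.27%. Without LFD replicate 3 it was 4, where *Fgf11* joined, against 9.55%. A fit blocked on the replicate number gave 4 (with *Fgf7*) in the lower direction, against 8.76% of all genes, and 1 (*Fgf1*) in the higher direction, against 8.75%. With DESeq2, and with no low-count filter, the count in the lower direction was 5, against 5.27% and 5.45% of all genes. *Fgf7* and *Fgf16* were the added genes. In the higher direction, the fit of all mice gave 0 ligands and 3.86% of all genes. The fit without HFD replicate 3 gave 1 ligand, *Fgf1*, and 2.17% of all genes. The log2 CPM values, counts scaled to the size of the library after TMM normalization, lay fully below those of the LFD-fed mice for 1 ligand, *Fgf2*, against 9.23% of all genes, and fully above for 0 ligands, against 6.72%. The ligands share the same 6 libraries and are not replicates of the diet.

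*Fgf2* encodes basic FGF, a heparin-binding growth factor without a classical signal peptide, at chr3:37348346-37410108 on the plus strand of GRCm38. Its counts were 380, 265 and 122 in HFD replicates 1, 2 and 3, which is 5.03, 3.95 and 1.47 TPM. In LFD replicates 1, 2 and 3 the counts were 913, 1709 and 472, or 15.2, 35.1 and 10.5 TPM. Every HFD-fed mouse lay below every LFD-fed mouse, and LFD replicate 2 stood highest. The log2 fold change was -2.04 (SE 0.64, 95% confidence interval -3.56 to -0.53) with an adjusted p of 0.3405 by edgeR's quasi-likelihood test. The exact two-sided permutation p was 0.1, the smallest that the 20 assignments of 6 mice allow. The fold change ran from -2.60 without HFD replicate 1 to -1.63 without LFD replicate 2. With DESeq2 it was -2.03 with an adjusted p of 0.0524.

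The *Fgf2* locus is crowded on the other strand, and the labels and methods do not state whether counting used the strand. *Nudt6*, whose transcript is antisense to *Fgf2*, overlaps it over 5199 bases and had a log2 fold change of -0.05 (edgeR adjusted p = 0.987). *Gm42923*, which overlaps over 2896 bases, had 210 to 675 counts per mouse and a log2 fold change of -0.31 (edgeR adjusted p = 0.856). *Fgf2os* had at most 4 counts in any mouse. Reads in the shared bases cannot be assigned to a strand here, and their part in the *Fgf2* value was not tested. The RefSeq promoter window of *Fgf2* has 20 CpG dinucleotides, where the median window has 6, and lies inside the annotated span of *Fgf2*. It is not printed.

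*Fgf10*, at chr13:118669791-118792115 on the plus strand, encodes a mesenchymal ligand of the epithelial form of FGFR2 that is needed for lung and limb outgrowth and for white fat development. Counts were 207, 178 and 129 in HFD replicates 1, 2 and 3 and 898, 1132 and 223 in LFD replicates 1, 2 and 3. On the TPM scale these were 3.10, 3.87 and 2.56 in HFD-fed and 16.3, 27.1 and 5.28 in LFD-fed mice. The TPM values of the diets did not overlap, but LFD replicate 3 was close to the HFD-fed mice, and on the log2 CPM scale it fell just below HFD replicate 1 (3.46 against 3.57). The log2 fold change was -2.24 (SE 0.64, 95% confidence interval -3.77 to -0.72), with an adjusted p of 0.2955 by edgeR's quasi-likelihood test and an exact permutation p of 0.2. Without LFD replicate 3 it was -2.70 with an adjusted p of 0.0341 by the same test, and without LFD replicate 1 or 2 it was -1.90 or -1.99. DESeq2 gave an adjusted p of 0.0239, and *Fgf10* was the only tested ligand under 0.05 by DESeq2, against 3.8% of all genes. The antisense gene *Gm16263*, which overlaps 20105 bases of the locus, had 5, 4 and 0 counts in HFD-fed and 22, 19 and 2 counts in LFD-fed mice.

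*Fgf7*, the keratinocyte growth factor and closest relative of *Fgf10*, lies at chr2:126034658-126091185 on the plus strand. It was at 2.04, 3.84 and 6.01 TPM in HFD replicates 1, 2 and 3 and at 2.20, 12.7 and 14.3 TPM in LFD replicates 1, 2 and 3. LFD replicate 1 sat among the HFD-fed mice, so the groups overlapped, with means of 3.96 ± 1.99 TPM for HFD and 9.71 ± 6.55 TPM for LFD (SD, n = 3). The log2 fold change was -1.05 (SE 0.46, 95% confidence interval -2.14 to 0.05) with an adjusted p of 0.495 by edgeR's quasi-likelihood test. Among the LFD-fed mice, *Fgf7* was lowest in replicate 1 and *Fgf10* in replicate 3. *Fgf7* lies entirely within the span of *Fam227b* on the opposite strand, which had at most 3 counts in a mouse.

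*Fgf1*, the acidic FGF, lies at chr18:38838673-38929472 on the minus strand and was the only tested ligand with a positive log2 fold change. It was at 11.7, 14 and 5.55 TPM in HFD replicates 1, 2 and 3 and at 6.86, 5.18 and 3.30 TPM in LFD replicates 1, 2 and 3. In TPM, HFD replicates 1 and 2 stood above all LFD-fed mice, and HFD replicate 3 lay between LFD replicates 1 and 2. The means were 10.4 ± 4.36 TPM for HFD and 5.11 ± 1.78 TPM for LFD (SD, n = 3). In log2 CPM HFD replicate 3, at 2.70, lay below both LFD replicate 1 at 4.13 and LFD replicate 2 at 3.21. The log2 fold change of *Fgf1* was 0.98 (SE 0.68, 95% confidence interval -0.63 to 2.59) with an adjusted p of 0.708 by edgeR's quasi-likelihood test. It ran from 0.49 without HFD replicate 1 to 1.57 without LFD replicate 1. The effective length that RSEM used for *Fgf1*, an average over its transcripts weighted by their estimated abundance, was 1558 to 2222 bases in HFD-fed and 2242 to 2665 bases in LFD-fed mice. It enters the TPM values but not the counts. *Arhgap26*, on the opposite strand across the whole of *Fgf1*, had a log2 fold change of 0.35 (edgeR adjusted p = 0.632).

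*Fgf9* and *Fgf18*, paracrine ligands known from gonad, lung and skeletal development, were low. *Fgf9* (chr14:58070547-58112720, plus strand) was at 1.57, 1.79 and 1.41 TPM in HFD replicates 1, 2 and 3 and at 1.00, 3.53 and 2.10 TPM in LFD replicates 1, 2 and 3. Its HFD values lay inside the LFD range, with a log2 fold change of -0.20 (SE 0.42, 95% confidence interval -1.20 to 0.80) that turned to 0.24 without LFD replicate 2. *Fgf18* (chr11:33117430-33147400, minus strand) was at 1.29, 0.79 and 0.88 TPM in HFD-fed and at 0.55, 1.48 and 4.98 TPM in LFD-fed mice. LFD replicate 3 alone was high, with 60 of the 89 counts of the LFD group. The log2 fold change of -0.77 (SE 0.73, 95% confidence interval -2.50 to 0.97) turned to 0.19 without that mouse. LFD replicate 3 also had the largest summed TPM of the fibroblast and progenitor markers, 34050, and the part of these cells in the *Fgf18* value was not tested.

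The intracellular members were lower in HFD-fed mice on average, with overlapping groups. *Fgf13* (chrX:59062145-59568071, minus strand) had 57, 13 and 13 counts in HFD replicates 1, 2 and 3 and 345, 204 and 23 counts in LFD replicates 1, 2 and 3. On the TPM scale its means were 1.10 ± 0.999 for HFD and 7.41 ± 4.99 for LFD (SD, n = 3), and LFD replicate 3 at 1.66 TPM lay below HFD replicate 1 at 2.24 TPM. Its log2 fold change was -2.90, with an SE of 1.16 and a 95% confidence interval of -5.66 to -0.15, and an adjusted p of 0.457 by edgeR's quasi-likelihood test. This value rested on few mice: it was -4.21 without HFD replicate 1 and -1.87 without LFD replicate 1. *Fgf11* (chr11:69796068-69801857, minus strand) was at 1.36, 1.74 and 1.00 TPM in HFD-fed and at 3.67, 3.80 and 1.49 TPM in LFD-fed mice. LFD replicates 1 and 2 stood above the other 4 mice, and the log2 fold change was -0.96 (SE 0.61, 95% confidence interval -2.40 to 0.49). LFD replicate 3 was the lowest LFD-fed mouse for *Fgf11* and *Fgf13* alike.

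*Fgf16* and *Fgf21* did not pass the filter on low counts and were left out of the fit. *Fgf21* (chr7:45613886-45615490, minus strand), the hormone that brown fat can release on cold exposure, had 11, 6 and 2 counts in HFD replicates 1, 2 and 3 and 8, 4 and 1 counts in LFD replicates 1, 2 and 3. That is 0.13 to 0.59 TPM against 0.10 to 0.53 TPM, so that the diets covered nearly the same range, and a difference was not detectable at this depth. The credibility interval of HFD replicate 1, the mouse with the most *Fgf21* counts, was 0.303 to 0.993 TPM. *Fgf16* (chrX:105764279-105774939, plus strand), first known from heart and embryonic brown fat of the rat, had 3, 0 and 1 counts in HFD-fed and 5, 9 and 8 counts in LFD-fed mice. The HFD counts lay below all LFD counts, but the 4 counts of the HFD group and 22 of the LFD group are too few for a fold change. Without the filter, *Fgf16* had an unadjusted p of 0.0387 and an adjusted p of 0.527 by edgeR's quasi-likelihood test, and *Fgf21* had an adjusted p of 0.937.

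**Figure D3:**
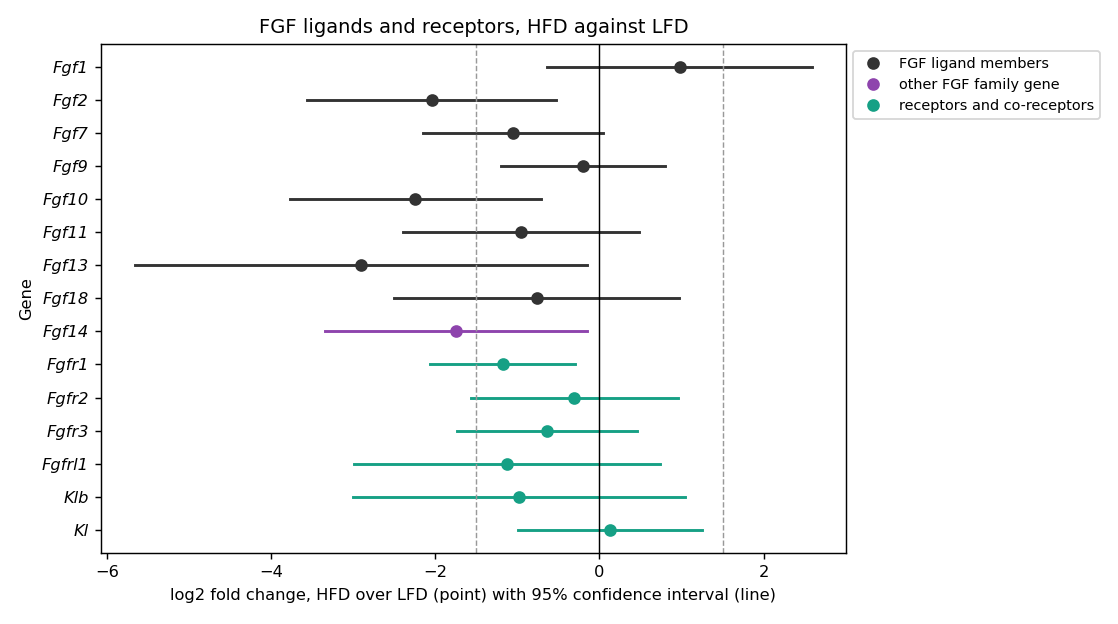
Log2 fold change, HFD over LFD, with its 95% confidence interval (horizontal line) by edgeR's quasi-likelihood fit for the 8 tested FGF ligands, *Fgf14* and 6 receptors and co-receptors. Dashed lines mark the absolute log2 fold change of 1.5, and the intervals of *Fgf2*, *Fgf10*, *Fgf13*, *Fgf14* and *Fgfr1* lie below 0.

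Muscle markers, like *Fgf2* and *Fgf10*, were lower in HFD-fed mice. The summed muscle markers were at 5580, 13370 and 1953 TPM in LFD replicates 1, 2 and 3, the same order of mice as for *Fgf2* and *Fgf10* in TPM. In HFD replicates 1, 2 and 3 they were at 79.5, 224 and 17.6 TPM. *Fgf10* shared this order in TPM, but *Fgf2* did not and was highest in HFD replicate 1. In log2 CPM *Fgf10* did not follow that order and was highest in replicate 1 of each diet. It was at 3.57, 3.11 and 2.49 in HFD and at 5.84, 5.75 and 3.46 in LFD replicates 1, 2 and 3. The summed white adipocyte markers were at 3758, 3451 and 717 TPM in LFD replicates 1, 2 and 3 and at 443 to 967 TPM in HFD-fed mice. LFD replicate 3 was the lowest LFD-fed mouse for *Fgf10*, *Fgf11* and *Fgf13* as well. Of the 12 fibroblast and progenitor markers, 11 had a negative log2 fold change, against 54.4% of all tested genes. The median of the 12 was -1.16, and that of the 8 white adipocyte markers, all negative, was -1.21. Both were near the median of the ligands, but the other marker lists were not all so. Skeletal muscle had a median of -6.20 and Schwann cells and nerve -0.66. Brown adipocytes had 1.35, endothelium 0.845, macrophages 0.41, and T and NK cells 2.28. The fibroblast and progenitor sum was 2157, 11150 and 34050 TPM in LFD replicates 1, 2 and 3, highest in the LFD-fed mouse lowest for *Fgf2* and *Fgf10*. The 12 T and NK cell markers were low, at 15.4 to 48.2 TPM in sum in HFD-fed and 1.99 to 14.7 TPM in LFD-fed mice. Markers of brown adipocytes, endothelium, macrophages and Schwann cells overlapped between the diets in sum. Much of the brown adipocyte sum was *Fabp4*, at 3664 to 5014 TPM in HFD-fed and 2624 to 8136 TPM in LFD-fed mice. A positive log2 fold change was found for 9 of the 12 brown adipocyte and 9 of the 10 endothelial markers, against 8063 of the 17668 tested genes. The part of these cells in the ligand values was not tested.

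Most other family genes had few counts. Of 12 further FGF genes, 10 had a count in some mouse, and *Fgf14*, another intracellular member, was the only one with enough counts to be tested. *Fgf5* had 16 counts in LFD replicate 3 and at most 3 in any other mouse. *Fgf14* had 29, 29 and 23 counts in HFD replicates 1, 2 and 3 and 90, 140 and 23 counts in LFD replicates 1, 2 and 3. LFD replicate 3 was again at the HFD level, and the log2 fold change was -1.75 (SE 0.67) with an adjusted p of 0.438 by edgeR's quasi-likelihood test.

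The receptors spanned a wide range of levels on the TPM scale. *Fgfr1*, the main FGF receptor of adipose tissue, was at 43.6, 53.1 and 28.0 TPM in HFD replicates 1, 2 and 3 and at 69.6, 140 and 161 TPM in LFD replicates 1, 2 and 3. Every HFD-fed mouse was below every LFD-fed mouse, with a log2 fold change of -1.18 (SE 0.37), an adjusted p of 0.346 by edgeR's quasi-likelihood test and an exact permutation p of 0.1. *Klb*, which encodes the beta-klotho that FGF21 needs, was at 9.34, 15.2 and 7.48 TPM in HFD-fed and at 35.8, 20.7 and 4.95 TPM in LFD-fed mice. The groups overlapped through LFD replicate 3, and the log2 fold change was -0.98 (SE 0.85). *Fgfr2*, the receptor of FGF7 and FGF10, had a log2 fold change of -0.30 (SE 0.53) and 2.27 to 7.83 TPM over the 6 mice. *Fgfr3* had -0.64 and the decoy receptor *Fgfrl1* had -1.13, values that were -0.19 and -0.14 without LFD replicate 1. *Klb* and *Fgfr2* turned to 0.29 and 0.0844 without the same mouse. *Kl*, the klotho of FGF23, had a log2 fold change of 0.12 at no more than 0.25 TPM. *Fgfr4* was at most at 0.53 TPM and did not pass the filter on low counts.

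Other steps of the pathway were summarised from the same fit, where edgeR and DESeq2 called 0 of their genes. Among 19 tested FGF-binding proteins and heparan sulfate genes the median log2 fold change was -0.51. An unadjusted p under 0.05 was found for 5 of them in the lower direction, the proteoglycans *Sdc2*, *Gpc1*, *Gpc3* and *Gpc4* and the sulfatase *Sulf2*, and for 1 in the higher direction, the syndecan *Sdc4* (log2 fold change 1.02, SE 0.28). Over all tested genes these shares were 6.62% and 3.86%. *Gpc3*, *Gpc4* and *Sulf2* are named because they complete this count, after their values were seen. *Sdc2* was at 9 to 16.1 TPM in HFD-fed and 16.3 to 52.5 TPM in LFD-fed mice (log2 fold change -1.14, SE 0.27). The 17 genes of the signal relay, with *Frs2* at -0.29, *Frs3* at -0.74 and *Braf* at -0.27, had a median of -0.17, and none of them had an unadjusted p under 0.05.

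The 19 feedback and target genes had a median log2 fold change of 0.30, on the other side of 0 from the ligands and *Fgfr1*. An unadjusted p under 0.05 in the higher direction was found for 5 of them, *Dusp6*, *Fos*, *Ccnd1*, *Dusp5* and *Spry4*, and in the lower direction for 1, *Etv1*, against 3.86% and 6.62% of all tested genes. *Dusp5*, *Spry4* and *Etv1* were named after their values were seen. *Dusp6*, the phosphatase that switches off ERK and a common readout of FGF signals, was at 21.9, 39.6 and 44.7 TPM in HFD replicates 1, 2 and 3 and at 9.46, 16.6 and 25.6 TPM in LFD replicates 1, 2 and 3. HFD replicate 1 lay below LFD replicate 3 on this scale. In log2 CPM the groups did not overlap, with 6.21, 6.37 and 6.50 in HFD and 4.87, 4.91 and 5.35 in LFD replicates 1, 2 and 3. Of all tested genes, 6.72% lay fully above in this way. The log2 fold change was 1.31 (SE 0.22), with an adjusted p of 0.170 by edgeR's quasi-likelihood test and of 8.51e-05 by DESeq2. By unadjusted p, 62 of the 17668 genes came before it. *Fos*, an immediate early gene, had a log2 fold change of 1.98 (SE 0.57) and *Ccnd1*, cyclin D1, one of 1.27 (SE 0.37). These genes respond to many growth signals besides FGFs.

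**Figure D4:**
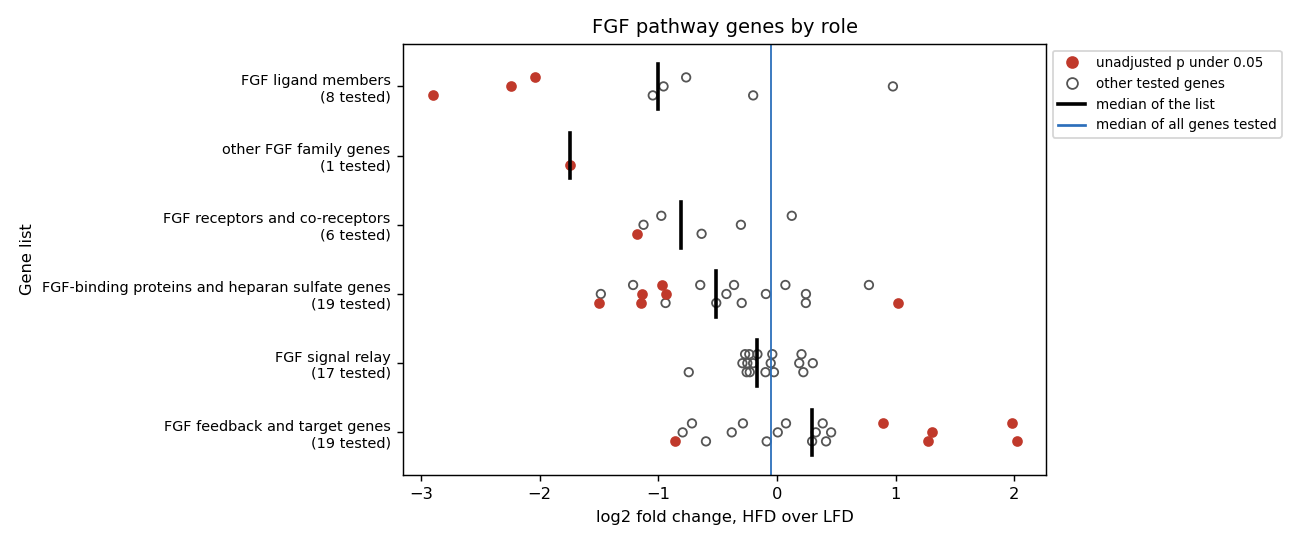
Log2 fold change, HFD over LFD, of every tested gene of the FGF pathway (1 point per gene) by role, with the median of each list (black) and of all tested genes (blue, -0.05). The ligands have a median of -1.0 and the feedback and target genes a median of 0.30.

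Across the alternatives that kept all mice, the log2 fold change of *Fgf2* stayed between -2.17 and -2.03 and that of *Fgf10* between -2.25 and -1.81. *Fgf13* was the ligand that moved most, from -2.91 to -1.83 on the log2(TPM + 1) scale, on which low values are pulled together. The direction of *Fgf1*, *Fgf2*, *Fgf7*, *Fgf10*, *Fgf11* and *Fgf13* held under all 14 alternatives. The directions of *Fgf9* and *Fgf18* held except where LFD replicate 2 and LFD replicate 3, respectively, were left out.

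**Figure D5:**
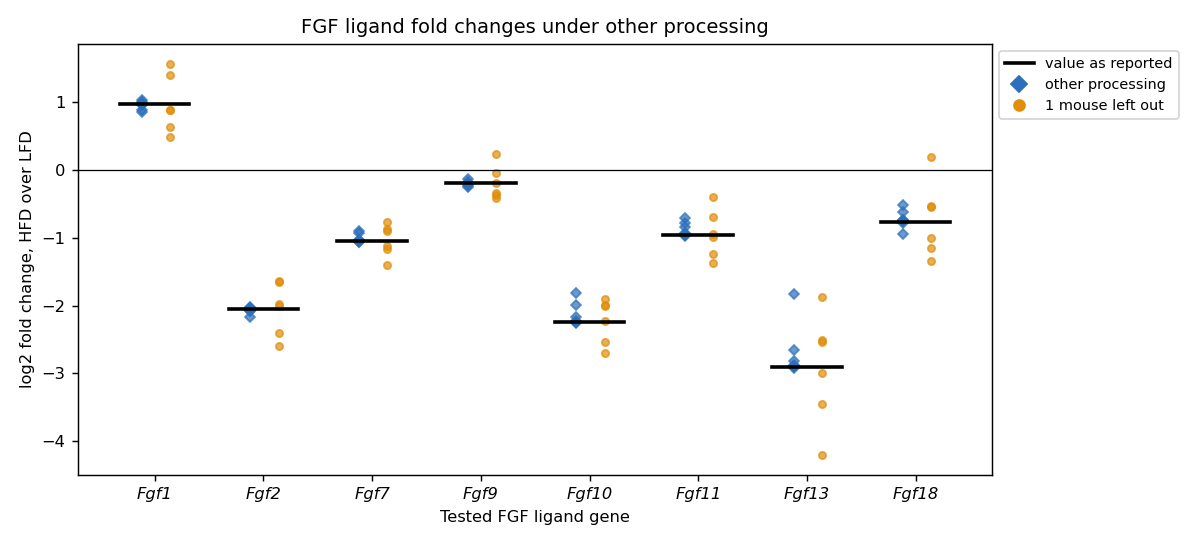
Log2 fold change, HFD over LFD, of the 8 tested FGF ligands as reported (black line), under other processing of all 6 mice (blue) and with 1 mouse left out (orange). *Fgf13* has the widest range, -4.21 to -1.83, and *Fgf9* and *Fgf18* each cross 0 in 1 setting.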

How the data were processed

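BAT of 3 HFD-fed and 3 LFD-fed mice, grouped by their labels, was analysed. The authors trimmed adapters from single-end reads of 75 bases (Trimmomatic 0.36), estimated gene levels with RSEM 1.3.0 against GRCm38.p4 and Ensembl 84, and compared diets with DESeq2 1.10.1. For each mouse they deposited expected counts, which share a read between the genes it matches, TPM values and the credibility bounds of these, not pooled over mice. The effective length that the authors' files give with each gene was also read. The files' FPKM and posterior columns were not used here.

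Expected counts were rounded to whole numbers. The quasi-likelihood test of edgeR 4.0.16 (R 4.3.3) was run after edgeR's low-count filter and TMM normalization, with Benjamini-Hochberg adjustment. Log2 CPM used a prior count of 2. The thresholds for a call (adjusted p 0.01, log2 fold change 1.5 in size) are those of the study. A ligand's log2 CPM was also compared by a two-sided exact permutation test, whose smallest p is 0.1. The fit was also run on simulated data whose set fold changes were larger than those of the ligands. That run does not bear on effects of the ligands' size.

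All 10 ligands and all receptors were named, besides genes that overlap a ligand. Of each other FGF pathway list, up to 3 tested genes with the smallest unadjusted p were named. Of the marker genes only *Ucp1*, *Myot* and *Fabp4* were named, and *Fgf5* was named outside this rule. The members and the lists were chosen with earlier results of these data known. Gene positions come from GENCODE M21, and promoter sequences from RefSeq, which held 8 of the 9 ligands looked up.

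Both diets carry the replicate numbers 1 to 3. Deviations from the diet mean correlated across genes with r = 0.498, 0.229 and 0.522 in mice of the same number, all above 0.1, so a fit with the number as a block was one alternative. The sources do not say that these mice were matched. Libraries of a diet were no repeats of each other, with a chi-square of their counts of at least 77.6 per degree of freedom.

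The other alternatives were DESeq2 1.42.0, RLE size factors, no normalization factors, no low-count filter, at least 10 counts in every mouse, mitochondrially encoded genes left out, limma 3.58.1 with a trend on log2(TPM + 1), an adjusted p under 0.05 with no fold limit, a prior count of 0.5, and each mouse left out in turn.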

Additional observations from a re-analysis of the deposited data

How the results depend on the processing

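Among all genes, the 0 calls by edgeR became 412 with DESeq2 (306 lower and 106 higher in HFD-fed mice) and 1 with limma on log2(TPM + 1), and stayed at 0 in the other alternatives, those leaving out 1 mouse included, and the cause of this gap between the tools was not tested. The FGF ligands and the other FGF pathway lists had 0 calls in every alternative run. With the replicate number as a block, *Fgf2* had a log2 fold change of -2.08 with an edgeR adjusted p of 0.0589 and *Fgf10* one of -1.99 with 0.102, and the block changed no call of a ligand or pathway gene. Over the fits that left out 1 mouse, the lowest and highest log2 fold changes crossed 0 for *Fgf9* (-0.41 to 0.24), *Fgf18* (-1.34 to 0.19), *Fgfr2* (-0.673 to 0.0844), *Klb* (-1.49 to 0.29), *Kl* (-0.06 to 0.554), *Gm42923* (-0.562 to 0.0916) and *Nudt6* (-0.422 to 0.269). On the log2(TPM + 1) scale *Kl* was at -0.0149. Of 799 gene values under an alternative, 780 kept their direction and side of the threshold, 12 turned direction and 7, none of them of an FGF ligand or pathway gene, passed the threshold. The median log2 fold change of all genes was -0.05, and -0.18 on the log2(TPM + 1) scale, where the values of the ligands are to be read against that shift. With 3 mice per diet and counts of 0 to 9 for *Fgf16* in a mouse and 1 to 11 for *Fgf21*, these genes entered only the fits without a low-count filter and DESeq2.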

Other observations

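Genes whose level followed that of a ligand over the 6 mice were looked for by the root mean square difference of their centred log2 CPM, for which the median over all tested genes was 1.38 against *Fgf2* and 1.36 against *Fgf10*. Closest to *Fgf2* were *Thpo*, thrombopoietin, with 0.149, *Celsr2*, an adhesion cadherin, with 0.200, and *Podn*, the matrix proteoglycan podocan, with 0.205. *Podn* was at 6.98, 5.92 and 2.65 TPM in HFD replicates 1, 2 and 3 and at 30.3, 48.1 and 15.4 TPM in LFD replicates 1, 2 and 3, and its groups did not overlap. *Thpo* was at no more than 1.71 TPM in any mouse. Closest to *Fgf10* were *Clmn*, calmin, with 0.163, *Gm9747* with 0.177 and *B3galt2*, a galactosyltransferase, with 0.230. *B3galt2* was at 3.51 to 6.31 TPM in HFD-fed and 11.1 to 47.0 TPM in LFD-fed mice. The likeness rests on 6 mice of 2 diets, so genes that differ between the diets by a like amount come close for that reason alone. None of these 6 genes passed the test, with edgeR adjusted p between 0.266 and 0.383.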
